A study of Thermothelomyces thermophilus with 49 samples.

Results

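The first 0.5 h after a switch from glucose to cellulose were followed here in the *clr1* deletion strain BS7.8 (*Δclr1*) of *T. thermophilus*. The 4 libraries are those labelled BS7.8 at steady state (SS, cultures R1 and R2) and at t1, 0.5 h after the cellulose spike (R1 and R2), and they belong to a series of 49 samples. The series covers 4 strains in 6 states with 2 bioreactor cultures per strain. MJK20.3 is the parental strain and lacks *ku80*, a gene of non-homologous end joining. The deletion strains BS7.8, BS6.4 (without *clr2*) and JK2.8 (without *clr4*), here *Δclr1*, *Δclr2* and *Δclr4*, lack *ku80* as well. BS7.8 and JK2.8 were derived from MJK20.3 with Cas12a, and BS6.4 from MJK20.2 with split marker fragments. MJK20.3 is a subculture of MJK20.2, taken after wild type had been found in that strain. The *amdS* marker was removed from all 3 deletion strains. Each genotype is a single strain, so that a change of that strain outside the deleted gene cannot be told apart from the deletion. At SS the cultures were fed with glucose as the limiting carbon source in a chemostat. Part of the broth was then replaced by medium without glucose that held microcrystalline cellulose, and the cultures went on as batch cultures, sampled at 0.5, 1, 2 and 4 h (t1 to t4). Each culture had also been sampled in exponential batch growth on glucose (ex).

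*T. thermophilus* is a thermophilic filamentous ascomycete known for secreting enzymes that break down plant cell walls. In the related fungus *Neurospora crassa*, the zinc cluster proteins CLR-1 and CLR-2 act in sequence, as CLR-1 responds to cellobiose or a product of it and raises expression of *clr-2*, and both are needed for cellulase genes to be expressed on cellulose. Cellobiohydrolases and endoglucanases cut the cellulose chain, lytic polysaccharide monooxygenases (LPMOs) cleave it oxidatively, and β-glucosidases turn cellobiose into glucose. A fungus that loses its sugar supply also typically cuts back the making of ribosomes, which is among the most costly activities of a growing cell, and relieves repression by Cre1, the regulator of carbon catabolite repression.

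The 4 libraries held 10981848 and 16755931 counts at SS and 12737557 and 10489642 at t1, so that a count of 0 allows a level of up to 0.286 CPM (counts scaled to a common library size of 1000000) in the shallowest of them (counting error only). The deleted gene *clr1* (MYCTH_2298863) had 2 and 20 counts at SS and 13 and 0 counts at t1. In the 12 libraries of *Δclr1* it stayed between 0 and 1.61 CPM, and in the other strains it had 38.9 to 54 CPM in ex and 145 to 452 CPM in the other states. The source of the remaining counts was not tested. The share of counts on tRNA genes was 0.00308 to 0.00402% in the 4 libraries and the 10 most abundant genes took 5.75 and 6.85% at SS and 7.07 and 7.28% at t1. The libraries of *Δclr1* and *Δclr4* come from another sequencing centre than those of the parental strain and *Δclr2*, whose RNA alone went through purification and DNase steps. Levels are therefore compared within a strain, and between strains only the responses, the changes from SS to t1, are compared.

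Within 0.5 h, levels changed across the transcriptome, with named genes of ribosome production among the steepest falls, while the median cellulase gene moved little. Of 8565 tested genes, 4414 (51.5%) passed the quasi-likelihood test of edgeR at an adjusted p of 0.05, with 2042 (23.8%) higher and 2372 (27.7%) lower at t1. Among them, 284 genes were higher and 445 lower by at least 2 on the log2 scale, and 55 and 38 by at least 4. Of the genes called higher, 2014 had both t1 libraries above both SS libraries and 28 had overlapping groups. Of those called lower, 2352 had both t1 libraries below and 20 overlapped. Most genes lacked overlap, since of all 8565 tested genes 2930 had both t1 libraries above, 3227 below and 2408 overlapped. Whether more genes were called higher or lower depended on the scaling. EdgeR with the size factors of DESeq2 called 2330 genes higher and 2154 lower, and DESeq2 itself 2359 and 2159. The median log2 fold change over all genes was −0.024 with TMM and 0.054 with these size factors. CPM are relative to the sequenced transcripts of a library, and less RNA of a kind per cell and fewer cells that hold it cannot be told apart.

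**Figure D1:**
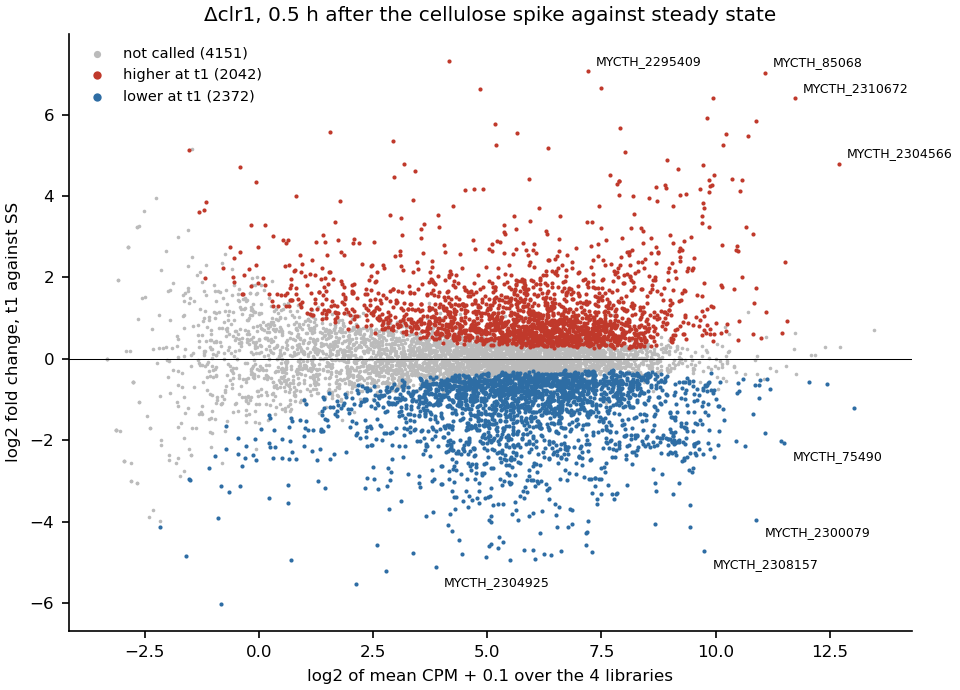
Log2 fold change from SS to t1 in *Δclr1* (y axis) against the log2 of the mean CPM + 0.1 over the 4 libraries (x axis), a point per tested gene, with the genes called higher and lower in colour. The 2042 higher genes reached a log2 fold change above 7 and the 2372 lower genes one of −6.02, in MYCTH_2299975.

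Among called genes with a mean of at least 5 CPM and no overlap between the groups, the 12 strongest rises started from at most 103.6 CPM at SS, and most of these genes carry no product name in the sources used here. MYCTH_85068 (chromosome 7, 1751098 to 1752336, annotated with metal ion binding) had 45.1 and 20.9 CPM at SS and 4352 and 4238 CPM at t1. Both t1 libraries lay far above both SS libraries, a log2 fold change of 7.03 ± 0.40 (SE, adjusted p = 2.8e-14, edgeR). MYCTH_2295409, annotated with hydrolase activity, went from 2.88 and 1.58 CPM to 250.8 and 331 CPM, which is 7.08 ± 0.36 on the log2 scale. MYCTH_2310672 had 103.6 and 54.9 CPM at SS and 5303 and 8144 CPM at t1, a log2 fold change of 6.41. MYCTH_102965, annotated with heme binding, rose from 29.9 and 15.9 CPM to 1690 and 2188 CPM. That each of these 4 genes rose in both cultures follows from the choice of genes without overlap. Culture R1 was the higher at SS in all 4.

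The rise with the largest gain in CPM was that of MYCTH_2304566 on chromosome 3. It had 542.7 and 379.6 CPM at SS and 8963 and 16710 CPM at t1, a log2 fold change of 4.80 ± 0.29 that was 16.5-fold in culture R1 and 44-fold in culture R2. The groups did not overlap, but the cultures differed in the size of the rise. The 6 genes with the largest gains together held 1.06 and 0.952% of all CPM at SS and 4.25 and 5.04% at t1. Among these 6, MYCTH_2071514 (8864 and 8137 CPM at SS, 16230 and 11800 CPM at t1) did not pass the test (log2 fold change 0.72, adjusted p = 0.15 in edgeR), but was called with only the 4 compared libraries in the fit (0.76).

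Other genes among the 12 highest log2 fold changes had a named domain or family. MYCTH_2127683, a glycoside hydrolase of family GH43 with a carbohydrate binding module of family CBM42, had 7.33 and 10.9 CPM at SS and 305.8 and 632.9 CPM at t1 (log2 fold change 5.67). MYCTH_2308477, assigned to the oxidoreductase family AA12, had 0.436 and 0.642 CPM at SS and 33.9 and 78.6 CPM at t1. MYCTH_2310773, a predicted transcription factor with a C2H2 zinc finger, rose from 2.71 and 1.58 CPM to 95.3 and 102 CPM (log2 fold change 5.56). MYCTH_2309375, annotated with metal ion binding, rose from 71.2 and 56.9 CPM to 2879 and 4521 CPM. That both t1 libraries of these 4 genes lay above the SS range follows from the choice of genes without overlap. The 4 genes not described so far among the 12 had log2 fold changes between 5.76 and 7.32, the highest for the heme binding gene MYCTH_2114617, which had 6 counts over both SS libraries and 806 over both t1 libraries, so that its fold rests on few counts at SS.

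**Figure D2:**
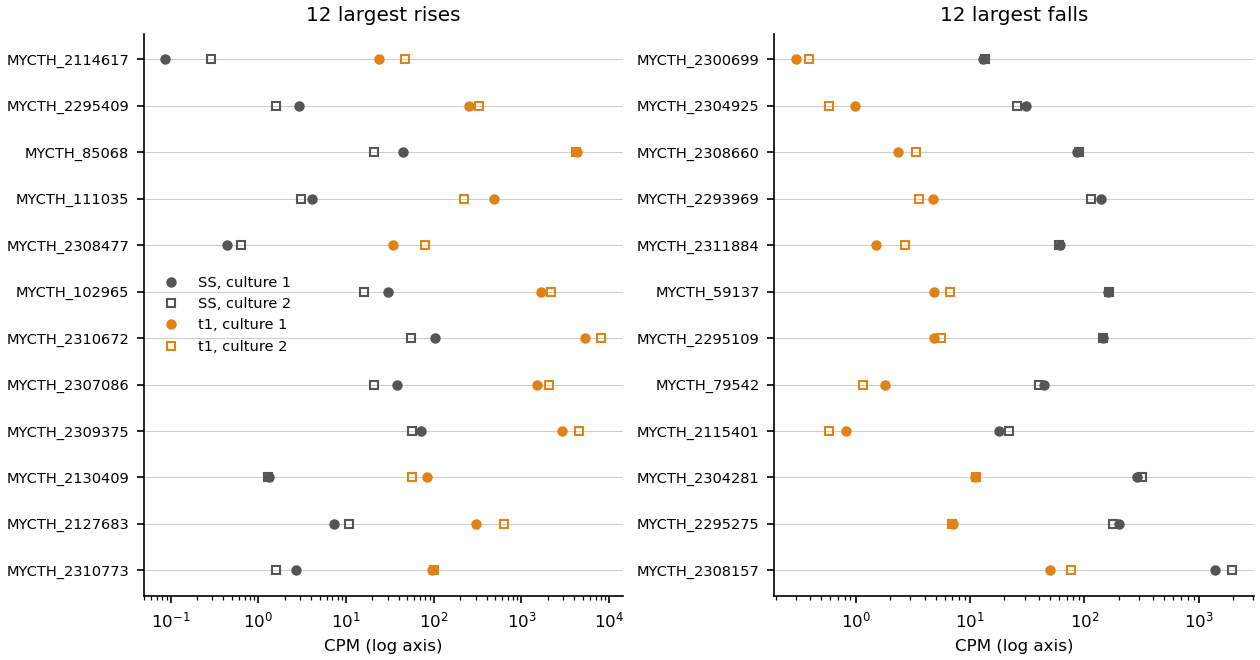
CPM (log axis) of the 12 genes with the highest and the 12 with the lowest log2 fold change in *Δclr1* among called genes with a mean of at least 5 CPM and no overlap, a point per library at SS (grey) and t1 (orange), filled for culture R1 and open for R2. By that choice both t1 points of each gene lie on the same side of both SS points, with MYCTH_85068 reaching 4352 CPM and MYCTH_2304925 falling to 0.583 CPM.

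Of the 12 steepest falls under the same limit on the mean, 5 were in genes annotated with ribosome production, 6 in genes with no annotation here and 1 in a transporter gene. GO annotations come here only from the study's enrichment sheets, which hold terms enriched among genes changed at every time in a strain. A falling gene could thus carry little but terms enriched among falling genes, so the count of 5 is no evidence. MYCTH_2304925 (chromosome 3, 3257799 to 3259023), annotated with rRNA processing and assembly of the large ribosomal subunit, had 31.1 and 25.6 CPM at SS and 0.978 and 0.583 CPM at t1. It was 34.7-fold lower, a log2 fold change of −5.12 ± 0.42 (adjusted p = 7.5e-12, edgeR). MYCTH_2295109, annotated with transcription of rRNA by RNA polymerase I, fell from 145.6 and 145.9 CPM to 4.89 and 5.53 CPM. MYCTH_2304281, annotated with the 90S preribosome, fell from 285.3 and 321.2 CPM to 11.1 and 11.4 CPM. MYCTH_2293969, annotated with maturation of the small subunit rRNA, fell from 140.6 and 114.8 CPM to 4.74 and 3.59 CPM. The replicates of these genes were close to each other and the t1 values lay more than an order of magnitude below SS. These 12 log2 fold changes lay between −5.22 and −4.72, and the least of them was that of the transporter gene MYCTH_2308157, with 1382 and 1948 CPM at SS and 50.3 and 76.4 CPM at t1. The lowest, MYCTH_2300699 (12.9 and 13.5 CPM at SS, 0.301 and 0.388 CPM at t1), has no annotation here.

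Of the 6 largest losses in CPM, 4 were in genes of glycoside hydrolase families, 1 in a gene annotated with translation elongation and 1 in a transferase gene. The trehalase gene MYCTH_75490, whose enzyme splits the storage sugar trehalose, had 4649 and 4739 CPM at SS and 1018 and 1222 CPM at t1 (log2 fold change −2.07 ± 0.19). The GH31 gene MYCTH_2300079 had 3379 and 3719 CPM at SS and 221.6 and 236 CPM at t1 (−3.96 ± 0.21). The GH16 gene MYCTH_2315557, a crosslinking transglycosidase of the cell wall, had 2899 and 3852 CPM at SS and 1030 and 885.9 CPM at t1. All 3 fell in both cultures with no overlap. MYCTH_115501, annotated with transferase activity, had the largest loss (7768 and 15410 CPM at SS, 3694 and 6349 CPM at t1, log2 fold change −1.21). Its 2 cultures differed about as much as the states did, and it was not called without SS replicate 2 (−0.63) or without t1 replicate 1 (−0.87).

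Genes of ribosomes, translation, DNA replication and biosynthesis are described by GO term. The terms used are those for which the study's enrichment sheets name every member, and these sheets hold genes changed at every time after the spike in one of the strains, *Δclr1* included. That choice largely fixed that all members of a term were called, and in which direction, so the counts are no evidence and only sizes and levels are described. All 11 genes of the large ribosomal subunit term and all 6 of ribosomal small subunit biogenesis were called lower, with medians of −2.15 and −2.33 on the log2 scale against −0.0243 over all tested genes. MYCTH_2316445 of the large subunit had 1132 and 1031 CPM at SS and 196.4 and 186.6 CPM at t1. All 14 genes of the 43S preinitiation complex, which brings the small subunit to the mRNA, were called lower with a median of −1.38. Its member MYCTH_76163 had 331.5 and 338.5 CPM at SS and 86.2 and 80.7 CPM at t1. The median level of the group was 279.5 CPM at SS and 92.2 CPM at t1, and no member lost its call in any alternative fit.

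Replication genes were described in the same way. The MCM complex is the helicase that opens DNA at replication origins, and its 6 members were all called lower, with log2 fold changes of −3.17 to −2.05. MYCTH_2309812 had 159.1 and 133.7 CPM at SS and 19.7 and 12.5 CPM at t1, and MYCTH_2301403 had 121.1 and 124.5 CPM at SS and 18.6 and 10.6 CPM at t1. The 4 genes of replication factor C, which loads the sliding clamp onto DNA, were called lower with a median of −2.12, for example MYCTH_2313161 with 69.3 and 76.6 CPM at SS and 13.5 and 10.4 CPM at t1. For both complexes, every t1 value lay below every SS value in the members given.

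In metabolism, 4 of 4 genes of acetyl-CoA formation from pyruvate were called lower (median −2.41), as were 4 of 4 of lysine biosynthesis by the aminoadipate route (−2.15), 4 of 4 of purine biosynthesis (−2.22) and 5 of 5 of aromatic amino acid biosynthesis (−1.67). MYCTH_2080603 of the acetyl-CoA term fell from 708.8 and 794.9 CPM to 82.8 and 75.1 CPM. MYCTH_2303613 of purine biosynthesis fell from 125.9 and 111.6 CPM to 12.7 and 14.7 CPM. Genes of the respiratory chain had smaller medians, with 7 of 7 of complex III (median −1.11) and 8 of 8 of cytochrome-c oxidase (median −0.67) called lower. Of the cytochrome-c oxidase genes, 5 were called lower without t1 replicate 2.

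Rising genes were described from the terms complete among the genes that rose, a choice that again largely fixed their direction and calls. The 3 catalase genes, whose enzymes break down hydrogen peroxide, were all called higher. MYCTH_2303088 had 732.8 and 489.9 CPM at SS and 2382 and 2532 CPM at t1, a log2 fold change of 2.01 ± 0.23. MYCTH_2299739 had 7.68 and 9.86 CPM at SS and 67.9 and 81.2 CPM at t1 (3.07 ± 0.31). MYCTH_80916 had 10.6 and 11.8 CPM at SS and 22.3 and 27.7 CPM at t1 (1.15 ± 0.20). All 3 genes thus had t1 values above their SS values in both cultures. The 3 genes of glycogen biosynthesis and the 3 sodium:proton antiporters, which exchange ions across membranes, were also all called higher, with medians of 0.59 and 0.93. The glycogen synthase family gene MYCTH_2301334 (GT3) had 75.6 and 79.3 CPM at SS and 161 and 167.8 CPM at t1. Outside the GO terms, the GT35 gene MYCTH_2309843, of the family of glycogen phosphorylases, rose from 96.3 and 87.9 CPM to 357.1 and 389.5 CPM, and the glycogen debranching enzyme gene MYCTH_2303065 fell from 144.3 and 201.1 CPM to 33 and 68.6 CPM.

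**Figure D3:**
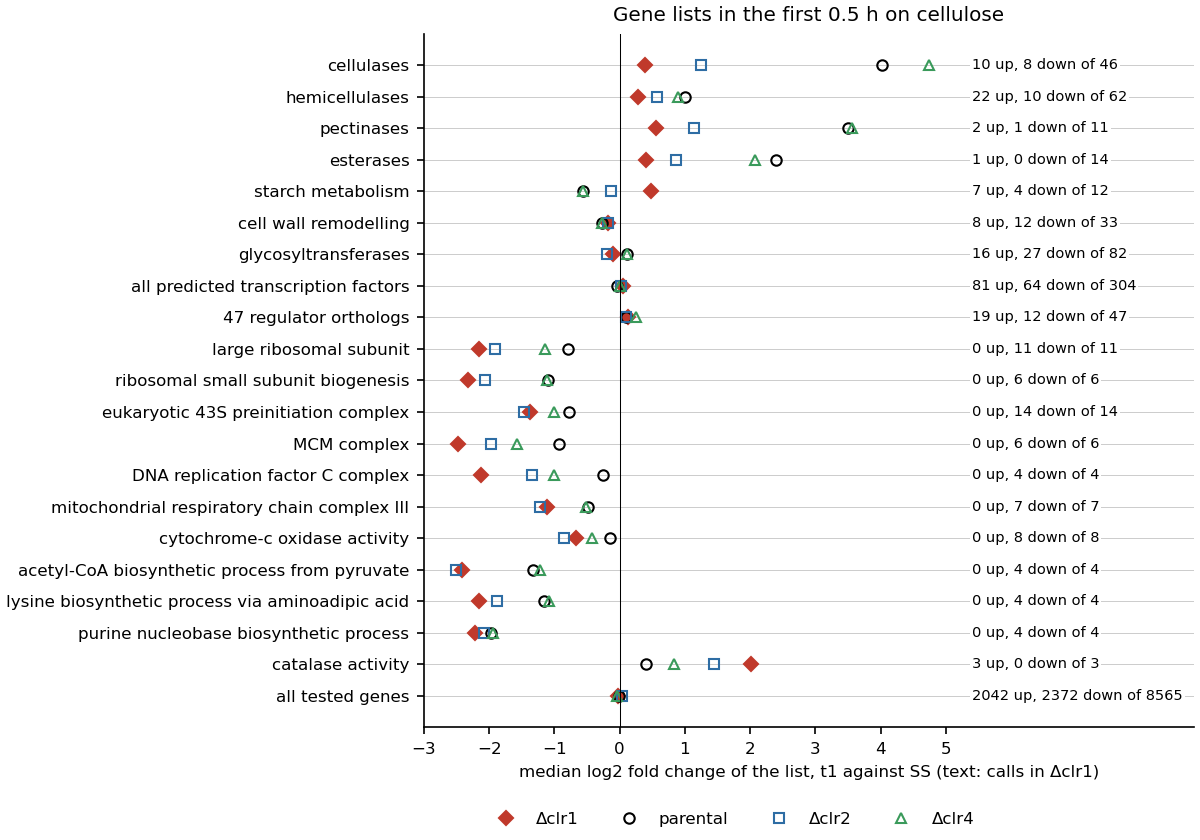
Median log2 fold change from SS to t1 of each gene group in the 4 strains, with the number of tested genes and, for *Δclr1*, the numbers called higher and lower. The ribosome and replication groups lie near −2 in *Δclr1* and nearer to 0 in the parental strain. These groups are GO terms complete among genes that fell in *Δclr1* or *Δclr2*, a choice that favours this difference. The cellulases lie at 0.39 in *Δclr1* and at 4.02 in the parental strain.

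Transcription factors moved in both directions. Of 304 predicted transcription factor genes tested, 81 (26.6%) were called higher and 64 (21.1%) lower, shares near those over all genes (23.8% and 27.7%). The number called higher was 52 without SS replicate 1. Among the 61 with a fungal specific transcription factor domain, 30 (49.2%) were called higher and 7 lower, or 21 and 5 with only the 4 compared libraries in the fit. MYCTH_2300935, listed under this domain and under the zinc cluster, had 282 and 229.8 CPM at SS and 1096 and 1237 CPM at t1, a log2 fold change of 2.19 ± 0.20, against −0.75 in the parental strain. MYCTH_2305551 fell from 774.2 and 1691 CPM to 297 and 295.1 CPM.

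The orthologs of known fungal regulators of carbon metabolism and growth moved in both directions. Of the 47 regulator orthologs that the study listed, 19 (40.4%) were called higher and 12 (25.5%) lower, against 23.8% and 27.7% over all genes, with a median of 0.13, and 12 were higher without t1 replicate 2. The *clr2* gene (MYCTH_38704, chromosome 1, 8537416 to 8539985), the second regulator of the cellulase system, had 14.1 and 16.2 CPM at SS and 18.1 and 40.7 CPM at t1. Its log2 fold change was 0.94 ± 0.33 (adjusted p = 0.018, edgeR), and it rested on t1 culture R2, since without that library it was 0.25 and not called. It was also not called without SS replicate 1 (0.79) or with only the 4 compared libraries in the fit (0.98). In the parental strain *clr2* went from 8.64 and 14.9 CPM to 298.5 and 493.5 CPM, a log2 fold change of 5.09. The difference between these responses was −4.15 ± 0.49 on the log2 scale (adjusted p = 5.0e-07).

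The gene *xyr1* (MYCTH_2310145) encodes the main activator of xylanase genes in many ascomycetes. It had 119 and 55.6 CPM at SS and 130.7 and 91.2 CPM at t1, so that the groups overlapped, and its log2 fold change of 0.35 ± 0.30 did not pass the test (adjusted p = 0.35). It was called only without SS replicate 1 (0.95). The response was 3.12 in the parental strain, 3.26 in *Δclr2* and 4.74 in *Δclr4*, and each differed from that of *Δclr1* (adjusted p = 1.6e-05, 3.6e-05 and 4.7e-09). The level of *xyr1* was higher in culture R1 than in R2 in both states.

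The catabolite repressor gene *cre1* (MYCTH_2310085) had 348.9 and 340.6 CPM at SS and 200 and 216.7 CPM at t1. This was a log2 fold change of −0.73 ± 0.16 (adjusted p = 3.1e-04), against 0.44 in the parental strain, −0.69 in *Δclr2* and 0.40 in *Δclr4*. The gene *hacA* (MYCTH_2310995), the regulator of the unfolded protein response that secreting cells use, had 641 and 703.8 CPM at SS and 458.2 and 424.4 CPM at t1. Its log2 fold change of −0.61 ± 0.17 (adjusted p = 0.0026) stood against 2.59 in the parental strain, 0.53 in *Δclr2* and 3.25 in *Δclr4*. The difference from each of the 3 strains passed the test (adjusted p = 4.4e-12, 0.00133 and 3.4e-14).

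Smaller rises were those of *gaaR* (MYCTH_46266), named after the activator of pectin degradation genes in *Aspergillus*, from 135 and 123.5 CPM to 219.5 and 221.8 CPM, and of *clr4* (MYCTH_2296492), from 159.2 and 166 CPM to 217 and 248.5 CPM. The gene *stk12* (MYCTH_2297068) went from 270.4 and 359.8 CPM to 555.5 and 719.1 CPM. All 3 had t1 values above SS in both cultures. The gene *mcmA* (MYCTH_2132441) was lower by −0.55 on the log2 scale and was not called without SS replicate 2 (−0.35). The lowest well expressed of the orthologs were the ortholog of AmyR, the activator of starch degrading enzymes (MYCTH_2301920, 1200 and 1279 CPM at SS, 497.4 and 501.1 CPM at t1), and that of Vib1 (MYCTH_46530, 148.6 and 100.5 CPM at SS, 52.6 and 48.6 CPM at t1). The ortholog of WC-1, a light receptor in *N. crassa* (MYCTH_2309330), was among the highest, with 73.7 and 61.6 CPM at SS and 151.3 and 150.5 CPM at t1.

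**Figure D4:**
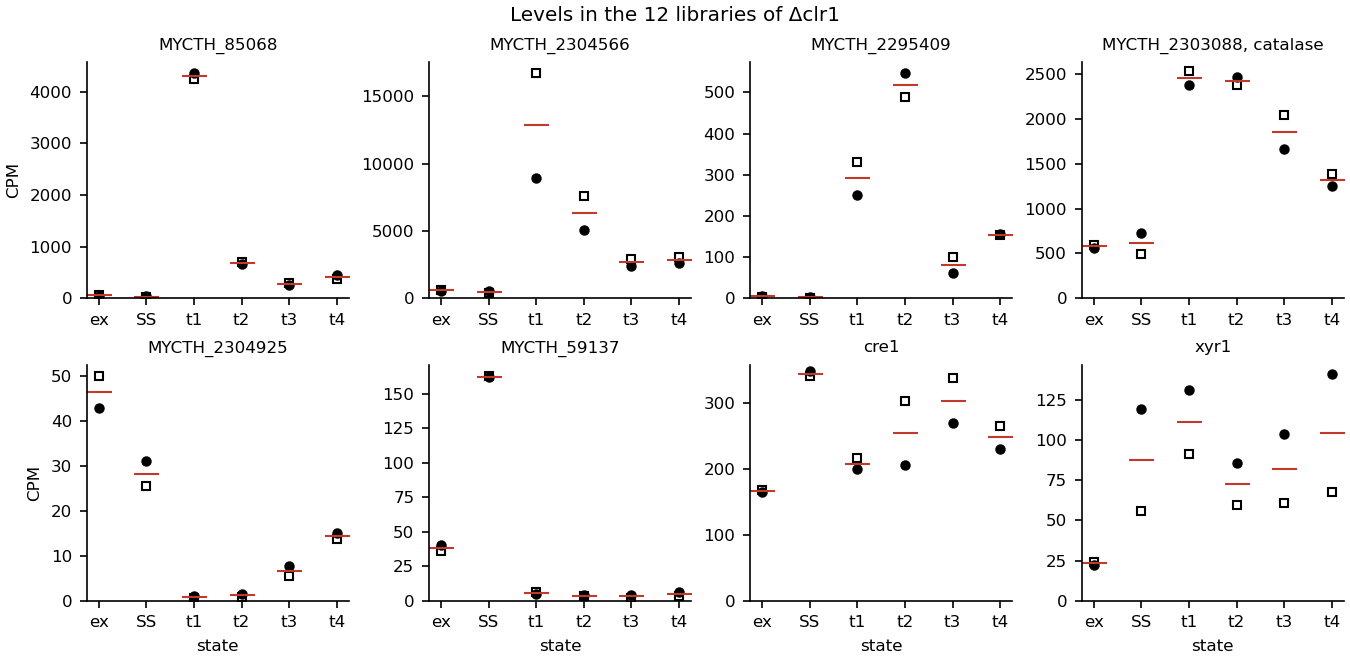
CPM (y axes, linear) of 8 genes in the 12 libraries of *Δclr1* in the states ex, SS and t1 to t4 (x axes), with filled circles for culture R1, open squares for culture R2 and bars for the mean of both. MYCTH_85068 peaks at t1 (4352 and 4238 CPM), the catalase gene MYCTH_2303088 stays high at t2, and *xyr1* is higher in culture R1 than in R2 at SS and t1.

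Cellulase genes as a group did not rise in *Δclr1*. Of 46 tested, 10 (21.7%) were called higher and 8 (17.4%) lower, shares below those over all genes (23.8% and 27.7%), and the median log2 fold change was 0.39 against 4.02 in the parental strain, 1.25 in *Δclr2* and 4.75 in *Δclr4*. Without t1 replicate 2 the counts were 6 higher and 3 lower, and without SS replicate 1 or t1 replicate 1 there were 5 lower. The cellobiohydrolase gene MYCTH_2303045 (GH6) had 11.4 and 14.3 CPM at SS and 12 and 11.9 CPM at t1 in *Δclr1*, and means of 7.18 at SS and 3566 at t1 in the parental strain. The groups overlapped in *Δclr1* and its log2 fold change was −0.11 ± 0.34.

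The summed share of CPM of the 46 genes fell from 0.532 and 0.542% to 0.243 and 0.233%, and a single β-glucosidase gene accounted for this. MYCTH_80304 (GH3, chromosome 3, 3949561 to 3952737) had 4327 and 4501 CPM at SS and 1202 and 984.8 CPM at t1, a log2 fold change of −2.01 ± 0.24. It was lower at t1 in the other strains too, with log2 fold changes of −3.20 in the parental strain, −1.93 in *Δclr2* and −3.76 in *Δclr4*. The other 45 genes together held 0.099 and 0.092% of CPM at SS and 0.123 and 0.134% at t1. In the parental strain the same 45 genes went from 0.0707 and 0.0661% to 2.62 and 4.06%.

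Among the cellulase genes that were called, most changes were small. The GH3 β-glucosidase gene MYCTH_66804 had 10.6 and 11.1 CPM at SS and 36.3 and 33.7 CPM at t1 (log2 fold change 1.69), against 5.04 in the parental strain. The GH3 gene MYCTH_2059579 had 97 and 130.1 CPM at SS and 248 and 337 CPM at t1 (1.36), not called without SS replicate 1 (1.12) or t1 replicate 2 (1.13). Both genes had no overlap between the states. The GH1 β-glucosidase gene MYCTH_115968 had 173.5 and 129.3 CPM at SS and 229.2 and 217 CPM at t1, and its log2 fold change of 0.56 (adjusted p = 0.0486) lost the call without SS replicate 2, t1 replicate 1 or t1 replicate 2. The endoglucanase gene MYCTH_86753 (GH5, CBM1) fell from 35.9 and 25.9 CPM to 20.1 and 10.5 CPM, a log2 fold change of −0.999 against 6.03 in the parental strain, and was not called without t1 replicate 2. The xyloglucan cleaving GH74 gene MYCTH_116384 fell from 11.4 and 17.4 CPM to 5.12 and 5.15 CPM, against a log2 fold change of 5.47 in the parental strain. Of 22 LPMO genes, 3 were called higher and 3 lower, and 1 was lower without SS replicate 1, t1 replicate 1 or t1 replicate 2.

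More hemicellulase genes were called higher than lower. Of 62 tested, 22 (35.5%) were called higher and 10 (16.1%) lower, against 23.8% and 27.7% over all genes, with a median of 0.28, and 6 were lower without t1 replicate 2. Their summed share of CPM went from 0.271 and 0.266% to 0.443 and 0.398%. Without the GH43 gene MYCTH_2127683 it was 0.270 and 0.265% at SS and 0.413 and 0.335% at t1. Another strong rise was that of MYCTH_114497, a GH2 β-galactosidase or glucuronidase, from 16.2 and 17.4 CPM to 132.7 and 148.8 CPM (log2 fold change 3.07), against 0.06 in the parental strain, a difference that passed the test (adjusted p = 2.7e-06).

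Some of the xylan degrading genes rose. Over all tested genes, 23.8% were called higher and 27.7% lower, and 15.7% had a response below the parental one. Of 9 xylanase genes tested, 4 were called higher and 0 lower in edgeR (1 lower without t1 replicate 1), with a median of 1.38 against 3.57 in the parental strain, and 4 of the 9 had a response below the parental one by the test of the difference. MYCTH_89603 (GH11) had 32.6 and 23 CPM at SS and 227.1 and 73.5 CPM at t1, a log2 fold change of 2.44 against 6.07 in the parental strain. MYCTH_116553 (GH10) had 52.7 and 22.6 CPM at SS and 297 and 91.7 CPM at t1 (2.38 against 4.96), and its rise was not called with only the 4 compared libraries in the fit. MYCTH_112050 (GH10, CBM1) had 2.10 and 3.62 CPM at SS and 14.8 and 13.8 CPM at t1 (2.28 against 8.23). The difference from the parental response passed the test for each of these 3. MYCTH_89603, MYCTH_116553 and the GH2 gene MYCTH_40111 (87.7 and 29.2 CPM at SS, 443 and 177.8 CPM at t1) were higher in culture R1 than in R2 in both states, as was *xyr1*, and the source of this difference between cultures was not tested. All 4 xylosidase genes were called higher (median 1.15), and 1 of them without t1 replicate 2 or 2 without SS replicate 2. In 2 of these 4 the response was below the parental one. Falls were found among mannan genes, with the mannanase gene MYCTH_84297 at 2.10 and 1.75 CPM at SS and 0.301 and 0.388 CPM at t1, and the α-mannosidase gene MYCTH_2301771 at 140.4 and 121.4 CPM at SS and 46.7 and 40.4 CPM at t1.

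Genes of starch and glycogen degradation split. Of 12, 7 (58.3%) were called higher and 4 (33.3%) lower, against 23.8% and 27.7% over all genes. The glucoamylase gene MYCTH_72393 (GH15 with the starch binding module CBM20) fell from 1573 and 1007 CPM to 108.7 and 104.2 CPM (log2 fold change −3.60 ± 0.35), while the other glucoamylase gene MYCTH_2296256 (GH15) rose from 147 and 175.5 CPM to 349.8 and 382.5 CPM (1.18 ± 0.16). In the parental strain the log2 fold changes were −5.71 and −0.29, and both differed from those of *Δclr1* (adjusted p = 0.00192 and 6.7e-06). All 4 α-glucosidase genes were called higher (median 0.56), and 2 of them without SS replicate 1 or t1 replicate 2. Of 33 genes of cell wall remodelling, 8 (24.2%) were higher and 12 (36.4%) lower, the former being 3 without SS replicate 1, 2 without t1 replicate 1 and 5 without t1 replicate 2. Of 82 glycosyltransferase genes, 16 (19.5%) were higher and 27 (32.9%) lower. The shares in both lists lay near those over all genes. Of 11 pectinase genes, 2 (18.2%) were higher (1 without SS replicate 1 or 2) and 1 (9.09%) lower, and of 14 esterase genes 1 (7.14%) was higher and 0 lower, or 4 and 1 with the culture as a block, 3 and 1 without t1 replicate 1 and 0 higher without t1 replicate 2.

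The response of *Δclr1* differed from that of the parental strain in 2343 genes (27.4%), with 1002 (11.7%) higher and 1341 (15.7%) lower in *Δclr1*. These are tests of the difference between the changes from SS to t1, each over 8 libraries. In the parental strain itself 1325 genes (15.5%) were called higher and 1544 (18.0%) lower. Of the 2042 genes that rose in *Δclr1*, 612 also rose in the parental strain (30% of the former and 46.2% of the latter) and 102 fell. Of the 2372 that fell, 1108 also fell in the parental strain (46.7% and 71.8%) and 161 rose.

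The differences from the parental strain lay in named groups on both sides. Of the 46 cellulase genes, 25 had a lower response in *Δclr1* and 1 a higher, of the 62 hemicellulase genes 25 and 8, and of the 11 pectinase genes 7 and 0. The GO terms were complete among genes that fell in *Δclr1* or *Δclr2*. That choice favours lower responses in *Δclr1* than in the parental strain, so the next counts of such responses are no evidence. The response was lower in *Δclr1* in 9 of 11 genes of the large ribosomal subunit term and 10 of 14 of the 43S preinitiation complex. It was lower in 5 of 6 genes of the MCM complex, 4 of 4 of replication factor C and 4 of 7 of complex III. For purine biosynthesis the difference was called in 0 of 4 genes, with medians of −2.22 and −1.97. The response was higher in *Δclr1* in 19 of 61 genes with a fungal specific transcription factor domain and lower in 3, against 11.7% and 15.7% over all genes. In the parental strain itself, 5 of these 61 genes were called higher and 14 lower at t1, so these are not all larger rises. The catalase gene MYCTH_2303088 had a mean of 215.2 ± 9.30 CPM (SD, n = 2) at SS and 243.3 ± 64 CPM at t1 in the parental strain, and its response was higher in *Δclr1* by 1.83 ± 0.32 on the log2 scale (adjusted p = 5.9e-05). The catalase term was complete among genes that rose in *Δclr1* or *Δclr2*, so the choice of this gene favours that difference.

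Single genes with far larger rises in *Δclr1* included MYCTH_85068, which went from 30.5 ± 0.289 to 102.4 ± 43.9 CPM in the parental strain, and the response of *Δclr1* was higher by 5.28 on the log2 scale. MYCTH_2315623 had 75.5 and 70.5 CPM at SS and 2612 and 3918 CPM at t1 in *Δclr1*, and means of 139.3 and 206.2 CPM in the parental strain. Among the genes with the lowest log2 fold changes in *Δclr1*, MYCTH_59137 had means of 87.9 CPM at SS and 9.20 CPM at t1 in the parental strain, and the difference of −1.59 was not called (adjusted p = 0.065 in edgeR).

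**Figure D5:**
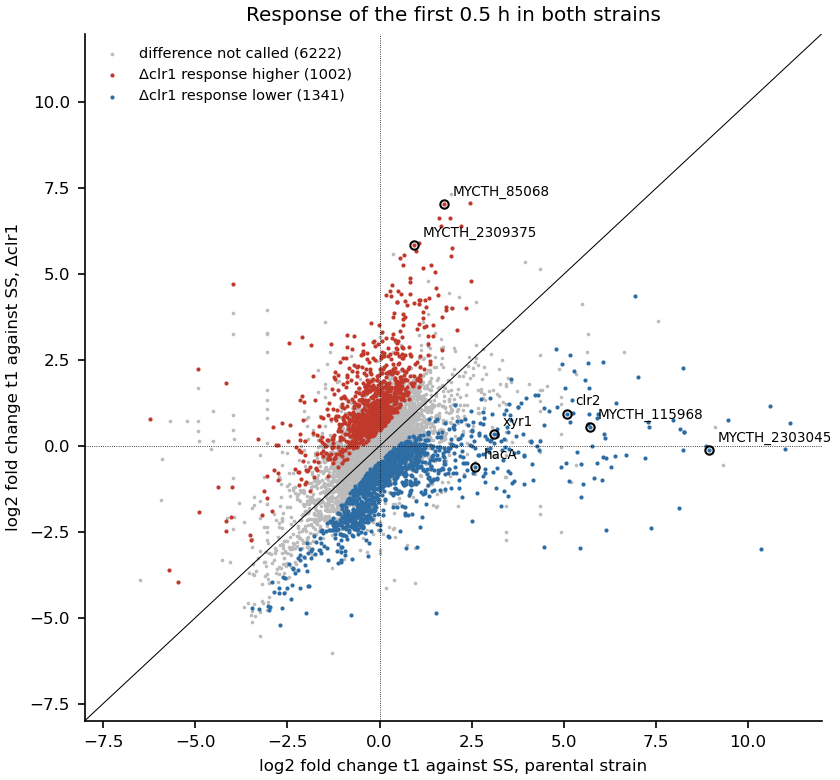
Log2 fold change from SS to t1 in *Δclr1* (y axis) against that in the parental strain (x axis), a point per tested gene, with the genes whose responses differed in colour. The 1341 genes with a lower response in *Δclr1* include the cellulase genes at the right, near 0 on the y axis, and the 1002 with a higher response include MYCTH_85068.

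The response of *Δclr2*, the other strain that lacks a regulator of the CLR-1 and CLR-2 pair, differed from that of *Δclr1* in 692 genes (8.08%), with 366 (4.27%) higher and 326 (3.81%) lower in *Δclr1*. The 3 differences between strains share the libraries of *Δclr1*, so their counts are given side by side only. Without *Δclr2* SS replicate 1 or *Δclr2* t1 replicate 1, the number was 423. In *Δclr2* 1933 genes (22.6%) rose and 2083 (24.3%) fell at t1, and 1298 of the rises (63.6% of those of *Δclr1*) and 1731 of the falls (73%) were shared. In the cellulase list 15 of 46 genes had a lower response in *Δclr1* than in *Δclr2* and 1 a higher. In the large ribosomal subunit term 1 of 11, and in the 43S preinitiation complex, the MCM complex and replication factor C 0 genes, had a difference called by edgeR. These terms were complete among genes that fell in *Δclr1* or *Δclr2*. That choice favours like responses in these strains, so these counts are no evidence.

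A sugar transporter gene separated these strains. MYCTH_84164, annotated with carbohydrate transport, had 138.7 and 479.6 CPM at SS and 33.9 and 45.9 CPM at t1 in *Δclr1*, and means of 226.4 CPM at SS and 6946 CPM at t1 in *Δclr2*. Its response in *Δclr1* minus that in *Δclr2* was −7.90 on the log2 scale. The cellobiose dehydrogenase gene MYCTH_81925, an enzyme that passes electrons to LPMOs, had 16.6 and 27 CPM at SS and 28 and 33.4 CPM at t1 in *Δclr1*, and means of 9.81 and 1894 CPM in *Δclr2*. The β-glucosidase gene MYCTH_62925 had 3.06 and 3.44 CPM at SS and 4.36 and 6.80 CPM at t1 in *Δclr1*, and means of 1.58 and 475.9 CPM in *Δclr2*. These 3 genes were thus near their SS level or below it in *Δclr1* at t1. In the other direction, MYCTH_2302253, annotated with pyridoxal phosphate binding, had 67 and 49.7 CPM at SS and 1883 and 2576 CPM at t1 in *Δclr1*, and means of 40.5 and 107.3 CPM in *Δclr2*.

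The response of *Δclr4*, the strain sequenced at the same centre as *Δclr1*, differed in 2534 genes (29.6%), with 1169 (13.6%) higher and 1365 (15.9%) lower in *Δclr1*. In *Δclr4* 1529 genes (17.9%) rose and 1889 (22.1%) fell. Of these, 642 rises and 1349 falls were also called in *Δclr1* (42% and 71.4% of those of *Δclr4*), and 141 and 189 genes that rose and fell in *Δclr1* went the opposite way. Of the 46 cellulase genes, 26 had a lower response in *Δclr1* and 3 a higher. The summed share of the cellulase genes without MYCTH_80304 in *Δclr4* went from 0.085 and 0.103% to 5.78 and 7.57% of CPM. In the large ribosomal subunit term, 9 of 11 genes had a lower response in *Δclr1* than in *Δclr4*. The term was complete among genes that fell in *Δclr1* or *Δclr2*, which favours this count, so it is no evidence.

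Between t1 and t2, 0.5 and 1 h after the spike, 1472 genes (17.2%) changed further in *Δclr1*, 616 (7.19%) upwards and 856 (9.99%) downwards, and 734 changed without t1 replicate 2. This comparison shares the t1 libraries with that against SS. Several of the strongest rises had declined in part by 1 h, to means that still lay above both SS values. MYCTH_85068 fell from 4295 ± 80 CPM (SD, n = 2) at t1 to 676.7 ± 28.7 CPM at t2 and 282.8 ± 27.8 CPM at t3. MYCTH_102965 fell from 1939 ± 352.3 to 461 ± 97.9 CPM, and MYCTH_2310672 from 6723 ± 2009 to 2153 ± 395.1 CPM. MYCTH_2304566 fell from 12830 ± 5476 to 6349 ± 1764 CPM, a change not called without t1 replicate 2.

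Others stayed or went on. The catalase gene MYCTH_2303088 had 2457 ± 106 CPM at t1 and 2423 ± 61.1 CPM at t2, and MYCTH_2299739 went on from 74.6 ± 9.35 to 170.6 ± 16.7 CPM. The transporter gene MYCTH_2308157 fell further from 63.3 ± 18.5 to 10.3 ± 3.20 CPM, and the GH31 gene MYCTH_2300079 from 228.8 ± 10.2 to 60.7 ± 1.32 CPM. The ribosomal genes stayed low. The median level of the large ribosomal subunit term was 163.9 CPM at SS, 32.1 CPM at t1, 29.8 CPM at t2 and 60.9 CPM at t4, and 2 of its 11 genes fell further from t1 to t2. In the MCM complex the median was 131.1 CPM at SS and 18 CPM at t1, and 1 of 6 genes fell further.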

How the data were processed

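Poly(A) RNA of 48 libraries (4 strains, 6 states, 2 cultures each) was sequenced as read pairs. 1 library of *Δclr4* was run on 2 flow cells and has 1 column in the table. The authors checked the reads with FastQC, trimmed them with BBTools, mapped them with STAR to the assembly ASM22609v1 and deposited raw counts per gene. R packages for read counting (Rsamtools, GenomicFeatures and GenomicAlignments) are listed among those used. The counting settings, strand included, are not given in the sources used here, so that reads of overlapping or near-identical genes may be shared. The deposited normalized values, fold changes and p-values of the authors were not used.

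Of 9292 genes, 727 were removed by filterByExpr (minimum count 10) and 8565 tested with edgeR (4.0.16, R 4.3.3, limma 3.58.1). TMM normalization and a robust quasi-likelihood model with a coefficient for each of the 24 groups were fitted over all 48 libraries (24 residual degrees of freedom, biological coefficient of variation 0.151), with Benjamini-Hochberg adjustment over the tested genes and a threshold of 0.05. CPM use TMM-scaled library sizes. Contrasts were t1 against SS in each strain, the differences of this response between *Δclr1* and each other strain, and t2 against t1 in *Δclr1*. All adjusted p-values are from edgeR unless another tool is named. The script was tested on simulated data. Replicates are separate bioreactor cultures of the same strain.

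Same-numbered SS and t1 libraries were taken as samples of the same bioreactor culture. The labels give strain, state and replicate number. The study named its duplicate cultures R1 and R2 and sampled before and after the spike, so the numbers were read as pairing them. Deviations from the group means correlated between SS and t1 with r = 0.238 across genes in *Δclr1* (0.012 in the parental strain, 0.116 in *Δclr2*, 0.357 in *Δclr4*). A fit with the culture as a replicate block was an alternative, beside the Wald test of DESeq2 (1.42.0), its size factors in edgeR, no filter, fits of only the 12 or 4 libraries of *Δclr1*, a fold limit and the omission of each library.

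Genes named are *clr1* and the regulators, the called orthologs with the 4 highest and 4 lowest changes, the 12 highest and 12 lowest log2 fold changes among called genes without overlap and with a mean of at least 5 CPM, the 6 largest gains and 6 largest losses in CPM, up to 4 called members per list, the 5 highest and 5 lowest called differences per strain (mean of at least 5 CPM over the groups compared), and CAZY genes named in the study. Others were chosen after their values were seen. Lists were the study's classes of CAZY genes, transcription factors and regulator orthologs, and GO terms for which the supplement names every gene, each as changed at all times in a strain. The comparison and the lists were chosen with earlier results of these data known. Gene positions and names come from RefSeq for ASM22609v1, which gives no product names here, so no marker list for spores or other cell states could be applied.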

Additional observations from a re-analysis of the deposited data

Results flagged for a closer look

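The response to cellulose at 0.5 h differed between *Δclr1* and another strain in 2343 genes for the parental strain, 692 for *Δclr2* and 2534 for *Δclr4*, by the test of the difference itself (edgeR, adjusted p under 0.05). Values below are log2 fold changes of *Δclr1* minus those of the other strain, for the 5 lowest and 5 highest called genes. The 3 comparisons share the libraries of *Δclr1*. Many of the lowest values belong to genes with about 1 CPM or less in *Δclr1*, whose fitted folds depend on the prior count and are no bounds.

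Against the parental strain, the lowest values were those of genes for plant cell wall enzymes, namely −11.11 for the GH11 gene MYCTH_100068, −10.45 for the LPMO gene MYCTH_110651, −9.92 for the endoglucanase gene MYCTH_111372 and −9.45 for the β-glucosidase gene MYCTH_58882, with −9.75 for MYCTH_2068307, which has no annotation here. MYCTH_110651 had 0.262 and 0.584 CPM at SS and 0.301 and 1.26 CPM at t1 in *Δclr1*, and a mean of 761.8 CPM at t1 in the parental strain. The highest were 5.30 for MYCTH_2308164, 5.28 for MYCTH_85068, 5.02 for MYCTH_2308477, 4.92 for MYCTH_2309375 and 4.92 for MYCTH_2315623.

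Against *Δclr2*, the lowest were −10.45 for MYCTH_100068, −10.33 for MYCTH_88807, −7.90 for the transporter gene MYCTH_84164, −7.62 for the β-glucosidase gene MYCTH_62925 and −7.12 for the cellobiose dehydrogenase gene MYCTH_81925. MYCTH_88807 was listed at 0 in 3 of the 4 *Δclr1* libraries, and its difference was not called without *Δclr1* SS replicate 2 (−7.31). The highest were 4.19 for MYCTH_2307269, 4.10 for MYCTH_111035, 3.85 for MYCTH_2302253, 3.63 for MYCTH_60632 and 3.50 for MYCTH_2295409. MYCTH_60632 had 47.1 and 40 CPM at SS and 911.1 and 1306 CPM at t1 in *Δclr1*, and means of 23.3 and 45.8 CPM in *Δclr2*.

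Against *Δclr4*, the lowest were −10.62 for MYCTH_110651, −10.36 for the GH6 gene MYCTH_2303045, −10.10 for MYCTH_100068, −10.02 for MYCTH_111372 and −9.99 for the LPMO gene MYCTH_80312. The highest were 6.52 for MYCTH_2114617, 5.55 for MYCTH_84377, 5.41 for MYCTH_85068, 5.31 for MYCTH_111035 and 5.25 for the C2H2 zinc finger gene MYCTH_2310773. MYCTH_84377 had 57.4 and 54.7 CPM at SS and 479.3 and 392.7 CPM at t1 in *Δclr1*, and means of 38.4 and 6.45 CPM in *Δclr4*.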

How the results depend on the processing

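The count of 4414 genes changed from SS to t1 was 3645 to 3983 without 1 of the 4 libraries, 4776 with a replicate block for the culture and 2129 with a log2 fold change of at least 1. The difference from the parental strain (2343) was 1646 to 2390 without 1 library and 2737 with the replicate block, that from *Δclr2* (692) was 423 to 706 and 929, and that from *Δclr4* (2534) 1949 to 2392 and 2997. The change from t1 to t2 (1472) was 734 without t1 replicate 2, 1356 without t1 replicate 1 and 1917 with the replicate block. The cause of these shifts was not tested. Of 2888 values of 290 named genes over the alternatives, 2699 kept direction and call, 181 lost the call, 6 gained it and 2 reversed. The block changed the call from SS to t1 of 0 named genes. MYCTH_2301869 (1.35) ranged from −0.073 without t1 replicate 1 to 2.07 without SS replicate 1, and MYCTH_52469 (1.22) from −0.081 without t1 replicate 1 to 1.87 without t1 replicate 2. Depth limits genes under a few counts, whose folds depend on the prior count.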

Other observations

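Of the 284 genes called higher by at least 2 on the log2 scale in *Δclr1*, 30 (10.6%) lay in 8 stretches of at least 3 neighbouring tested genes that all rose this much, a pattern looked for after the values were seen and described without a test. On chromosome 1 (ASM22609v1, 2514013 to 2530655), 8 neighbouring genes were all called higher with a log2 fold change of at least 2. Among them MYCTH_41800 had 60.2 and 40.5 CPM at SS and 731.9 and 1099 CPM at t1, and MYCTH_2295414 had 89.6 and 83.5 CPM at SS and 602 and 761.9 CPM at t1. The hydrolase gene MYCTH_2295409 and the heme binding gene MYCTH_2114617 belong to the same stretch. Its first genes, MYCTH_2122561 and MYCTH_2051636, had at most 1.26 CPM in the 4 libraries. The smallest gap between its genes was 13 bp and the largest 1709 bp.

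On chromosome 4 (1107807 to 1114724), the GH43 gene MYCTH_2127683 lay between MYCTH_2306100, with 9.08 and 10.4 CPM at SS and 55.7 and 122.2 CPM at t1, and MYCTH_2306101, with 120.7 and 113.9 CPM at SS and 2031 and 2961 CPM at t1. On chromosome 1 (7163341 to 7170166), MYCTH_2297847 went from 199.4 and 151.5 CPM to 1327 and 2003 CPM, and its neighbour MYCTH_2297849 from 143.3 and 101.6 CPM to 1273 and 1906 CPM. In all 3 stretches the t1 values lay above the SS values in every gene given.

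A stretch of 6 neighbours on chromosome 1 (10619068 to 10644213) fell instead, with log2 fold changes between −4.83 for MYCTH_59137 and −2.29. In the parental strain the same 6 genes had log2 fold changes between −3.24 and −1.86, and no difference between the strains was called in edgeR.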
